A study of Mus musculus with 31 samples.

Results

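The transcripts of 10 leukocyte integrin genes, Itgal, Itgam, Itgb2, Itga4, Itga5, Itga6, Itgav, Itgb1, Itgb5 and Itgb7, were followed through 31 RNA-seq libraries of mouse dendritic cells and spleens. The genes were chosen by symbol, each symbol was matched to its Ensembl gene ID in the count files, and a gene with no line in a file was set to 0. They are 10 of the 29120 gene IDs in the files, all 10 symbols were found, and all 10 had reads in each of the 31 libraries.

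Integrins are receptors made of an alpha and a beta chain, and they hold a cell to other cells or to the extracellular matrix. Each alpha chain needs a fitting beta chain to reach the cell surface. Among others, the Itgb2 chain pairs with Itgal, Itgam or Itgax, and the Itgb1 chain with Itga4, Itga5 or Itga6. The Itgb7 chain pairs with Itga4 or Itgae, and the Itgav chain with Itgb1, Itgb5 or Itgb8 among others. On leukocytes the Itgb2 family serves firm adhesion and the immune synapse, the Itga4 pairs bind the endothelium, and the Itga5 and Itgav pairs bind fibronectin and other matrix proteins.

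The mice were C57BL/6, either wild-type or labelled Gpr34-/- for the receptor Gpr34, which lysophosphatidylserine activates. How the allele was made is not given in the sources used here. Dendritic cells, which take up antigen and show it to T cells, came from the marrow of male mice aged 8 to 16 weeks. They were grown for 10 days with supernatant of a cell line that secretes GM-CSF, a growth factor for myeloid cells, and on day 11 a part received LPS, a component of bacterial walls, for 8 h. The 4 dendritic cell groups were naive wild-type, LPS-treated wild-type, naive Gpr34-/- and LPS-treated Gpr34-/- (n = 3 each). The spleens were labelled naive and came from mice aged 12 weeks, 10 of them wild-type and 9 Gpr34-/-. The labels do not name animals or cultures, so every p-value rests on how far libraries of a group vary, and this spread may be technical.

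The deposited values are counts of reads per gene, and the libraries summed to between 38998746 and 74164853 counts for dendritic cells and between 56834377 and 133277070 for spleens. Levels are given as CPM, the counts of a gene relative to the library size scaled by the trimmed mean of M-values (TMM). A change was called at an adjusted p under 0.05 in edgeR's quasi-likelihood test, with Benjamini-Hochberg adjustment over all genes tested. Gpr34 did not follow the labels in all dendritic cell libraries: it had 199 to 324 counts in naive wild-type cells, 0, 120 and 4 in the naive libraries labelled Gpr34-/- (replicates 2, 3 and 4), 65 to 125 in LPS-treated wild-type cells and 0, 117 and 104 in the LPS-treated libraries labelled Gpr34-/- (replicates 2, 3 and 4). These are therefore called the libraries labelled knockout. All wild-type spleens (308 to 986 Gpr34 counts) lay above all knockout spleens (42 to 156). Of the 10 dendritic cell markers listed, Itgax, Flt3, Zbtb46 and genes of antigen presentation among them, all had reads in each dendritic cell group, and so had all 10 macrophage markers. The summed B cell markers reached at most 8.89 CPM in dendritic cells. In whole tissue and in mixed cultures, fewer cells of a type and less RNA per cell cannot be told apart.

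The stretches of DNA just before the start sites are shown for 4 members whose transcripts moved in opposite directions with LPS, Itgam and Itgb7, which fell, and Itga5 and Itgav, which rose. Each is the 250 bases before the RefSeq start site (build GRCm38.p6, which is not the build of the count files), 5′ to 3′ on the gene's strand. Capitals mark matches on either strand to GAGGAA, the core of sites for the myeloid factor PU.1, or to GGGCGG, the GC box. Itgam lies at chr7:128062390-128062639 (+), Itgb7 at chr15:102231936-102232185 (-), Itga5 at chr15:103366792-103367041 (-) and Itgav at chr2:83724147-83724396 (+).
Itgam: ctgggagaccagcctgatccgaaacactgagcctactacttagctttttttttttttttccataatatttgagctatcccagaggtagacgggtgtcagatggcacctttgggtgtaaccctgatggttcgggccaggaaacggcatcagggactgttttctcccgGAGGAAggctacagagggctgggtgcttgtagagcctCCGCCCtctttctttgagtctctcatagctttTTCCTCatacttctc
Itgb7: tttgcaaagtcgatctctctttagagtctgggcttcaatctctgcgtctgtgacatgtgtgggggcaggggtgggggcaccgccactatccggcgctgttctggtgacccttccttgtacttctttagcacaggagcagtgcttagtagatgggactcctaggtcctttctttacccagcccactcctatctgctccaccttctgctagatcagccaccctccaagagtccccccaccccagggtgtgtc
Itga5: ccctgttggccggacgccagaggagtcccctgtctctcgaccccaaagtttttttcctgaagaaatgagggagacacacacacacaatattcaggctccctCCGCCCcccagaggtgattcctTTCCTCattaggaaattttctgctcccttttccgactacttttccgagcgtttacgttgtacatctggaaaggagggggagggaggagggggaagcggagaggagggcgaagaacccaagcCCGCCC
Itgav: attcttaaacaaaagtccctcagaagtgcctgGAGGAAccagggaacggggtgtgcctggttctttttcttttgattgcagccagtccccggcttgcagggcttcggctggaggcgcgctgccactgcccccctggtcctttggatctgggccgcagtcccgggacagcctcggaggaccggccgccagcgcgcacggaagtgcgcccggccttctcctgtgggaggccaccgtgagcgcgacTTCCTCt

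The windows differed in these letters. That of Itgam held 2 PU.1 cores and 1 GC box, that of Itga5 held 1 and 2, that of Itgav held 2 PU.1 cores and no GC box, and that of Itgb7 held neither. Of all 32851 RefSeq promoter windows of the same length, 23.3% held GAGGAA and 32.7% held GGGCGG on either strand. The AP-1 letters TGANTCA (6.75% of all windows), the interferon-stimulated response motif (2.98%), the kappa B motif (3.90%) and the TATA box TATAAA (12.4%) were in none of the 7 member windows that RefSeq gave, and the Runx letters TGTGGT (14.0%) were in that of Itga4. A match is a description of letters and not a site in use. Windows of Itgal, Itgb2 and Itga6 were not analysed here.

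Some members share a chromosome (GENCODE M21, GRCm38). Itgal (chr7:127296260-127335138) and Itgam (chr7:128062640-128118491) lie 727.5 kb apart on the plus strand, and Itgax follows Itgam after 11.1 kb. Itgb7 (chr15:102215995-102231944) and Itga5 (chr15:103344286-103366763) lie 1112 kb apart on the minus strand. Itga6 (chr2:71745616-71858416), Itga4 (chr2:79255426-79333123) and Itgav (chr2:83724397-83806916) are on the plus strand, with gaps of 7397 kb and 4391 kb. Itgb2 is at chr10:77530252-77565708, Itgb1 at chr8:128685654-128733200 and Itgb5 at chr16:33829665-33949338, all on the plus strand.

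**Figure D1:**
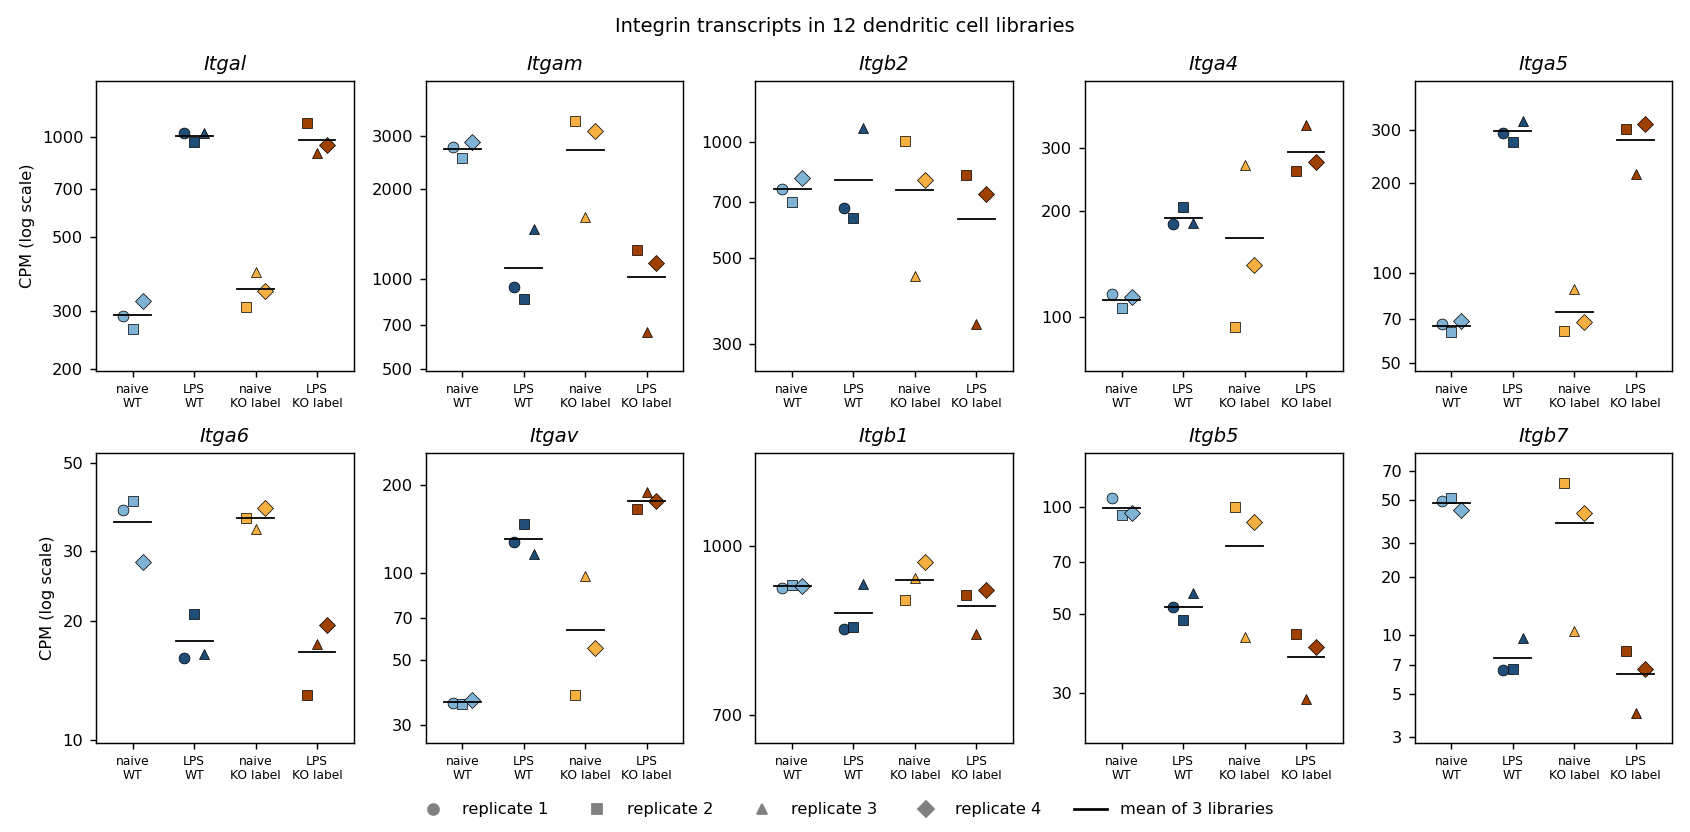
Level of each integrin transcript in the 12 dendritic cell libraries, in CPM on a log axis. Each point is a library, its shape gives the replicate number, and the line is the mean of 3 libraries (WT, wild-type; KO label, labelled knockout). Itgal, Itga5 and Itgav sit higher with LPS in both genotypes, Itgam, Itga6 and Itgb7 sit lower, and Itgb1 stays between 829.7 and 967 CPM throughout.

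In wild-type dendritic cells LPS moved the integrin transcripts in both directions. Itgal, Itga5 and Itgav rose, Itgam, Itga6, Itgb5 and Itgb7 fell, and Itgb1, Itgb2 and Itga4 did not pass the test. That is 7 of 10 members called, 3 higher and 4 lower, where 33.9% of the 16965 genes tested were called (18.1% higher, 15.8% lower). The groups did not overlap for 8 of 10 members, where they did not for 50.9% of all genes. The median log2 fold change was -5.465e-05 over the members and -0.03 over all genes tested. Marker genes moved with LPS too. Of 10 dendritic cell markers, Itgax among them, 8 were called higher and none lower, and their sum went from 12580 to 14780 CPM in naive to 20430 to 23480 CPM in treated wild-type cells. Of 10 macrophage markers 2 were called higher and 1 lower (median log2 fold change -0.47), with sums of 3228 to 3604 CPM and 2297 to 4004 CPM. Of 7 mast cell and basophil markers tested 1 was called lower and none higher, but the median log2 fold change was 0.76. Without overlap of the groups, 5 of these 7 were higher and 1 was lower after LPS. The sum over all 10 listed was 55.9 to 62.4 CPM in naive and 28.9 to 39.1 CPM in treated wild-type cells. The part of these cells in the integrin changes was not tested.

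The chains of the Itgb2 family differed in their response. Itgal, the alpha chain of LFA-1, which binds the ICAM proteins, stood at 289, 265 and 321 CPM in naive wild-type cells and at 1029, 968 and 1028 CPM after LPS. The groups were far apart, and the log2 fold change was 1.79 (SE 0.115, adjusted p = 1.64e-06). With the knockout label Itgal stood at 309, 393 and 343 CPM without LPS and at 1099.6, 896 and 948 CPM with it. No naive library reached an LPS-treated one there either, and the log2 fold change was 1.495 (SE 0.114, adjusted p = 7.09e-06).

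Itgam, the alpha chain of Mac-1, a receptor for complement-coated particles and for ICAM-1, moved the other way. It stood at 2748, 2536 and 2856 CPM in naive wild-type cells and at 941, 859 and 1469 CPM after LPS. The highest LPS-treated library, replicate 3, still lay below the lowest naive one, and the log2 fold change was -1.32 (SE 0.308, adjusted p = 0.00704). Under the knockout label Itgam stood at 3365, 1606 and 3114 CPM without LPS and at 1249, 668 and 1134 CPM with it. These groups did not overlap, although naive replicate 3 had about the level of the wild-type LPS-treated replicate 3, and the log2 fold change was -1.41 (SE 0.308, adjusted p = 0.00601). Several marker sums moved with Itgam among the wild-type LPS-treated libraries. The macrophage markers summed to 4004 CPM in replicate 3 and to 2559 and 2297 CPM in replicates 1 and 2. Dendritic cell markers summed to 23480 CPM in replicate 3 against 20430 and 21510 CPM, and megakaryocyte markers to 222 CPM against 144 and 141 CPM. Other sums went the opposite way and were lowest in replicate 3. Neutrophil markers summed to 22.2 CPM there against 35.1 and 24.9 CPM. Mast cell and basophil markers summed to 28.9 CPM there against 39.1 and 34.3 CPM. The part of these cells in the level of Itgam was not tested.

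Itgb2, the beta chain that Itgal and Itgam share, showed no change past its spread. It stood at 757, 701 and 807 CPM in naive wild-type cells and at 676, 635 and 1088 CPM after LPS, with 2 LPS-treated libraries below and 1 above all naive ones. Its log2 fold change was 0.08 (SE 0.351, adjusted p = 0.887), and it was -0.33 without the composition factors of TMM. Itgb2 under the knockout label stood at 1005, 449 and 798 CPM without LPS and at 824, 337 and 734 CPM with it. There the groups overlapped and the log2 fold change was -0.25 (SE 0.351, adjusted p = 0.648). Itgax, the alpha chain that marks dendritic cells and pairs with Itgb2 as well, stood at 501, 508 and 582 CPM in naive wild-type cells and at 636, 647 and 1036 CPM after LPS. The Itgax groups did not overlap, but its log2 fold change of 0.54 (SE 0.216) had an adjusted p of 0.0761. Under the knockout label the Itgax groups overlapped (log2 fold change 0.26, SE 0.215, adjusted p = 0.402).

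Itgb1, the beta chain of most matrix-binding integrins, did not pass the test either. It stood at 916, 921 and 920.2 CPM in naive wild-type cells and at 839, 842 and 922 CPM after LPS. The log2 fold change was -0.08 (SE 0.0713, adjusted p = 0.412), and in the libraries labelled knockout, between 829.7 and 967 CPM, it was -0.08 as well (SE 0.0713, adjusted p = 0.438). Without composition factors, which shift the median of all genes to -0.44 in the wild-type and -0.35 in the libraries labelled knockout, Itgb1 was called lower in both (log2 fold changes -0.49 and -0.41), so that its fall there was about that of the median gene.

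The alpha chains that pair with Itgb1 parted. Itga5, which forms the main fibronectin receptor with Itgb1, stood at 67.6, 63.6 and 68.9 CPM in naive wild-type cells and at 293, 273 and 322 CPM after LPS. It rose more than any other member, by 2.15 on the log2 scale (SE 0.161, adjusted p = 5.28e-06). Under the knockout label it went from 64.1, 88.5 and 68.6 CPM to 302, 214 and 314 CPM, again without overlap, and the log2 fold change was 1.91 (SE 0.16, adjusted p = 1.46e-05).

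Itga6, whose pairs bind laminin, stood at 38.1, 40.2 and 28.2 CPM in naive wild-type cells and at 16.1, 20.8 and 16.5 CPM after LPS. All 3 treated libraries lay below all naive ones, and the log2 fold change was -0.99 (SE 0.179, adjusted p = 0.00154). The libraries labelled knockout gave 36.3, 34.1 and 38.6 CPM without LPS and 12.95, 17.5 and 19.5 CPM with it, and the log2 fold change was -1.13 (SE 0.180, adjusted p = 0.000950).

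Itga4, which pairs with Itgb1 or Itgb7 and binds VCAM-1 and fibronectin, stood at 117, 106 and 114 CPM in naive wild-type cells and at 183, 205 and 185 CPM after LPS. The groups did not overlap, yet the log2 fold change of 0.77 (SE 0.292) had an adjusted p of 0.0656 and was not called. With the knockout label it went from 94.0, 269 and 140.5 CPM to 258, 348 and 274 CPM, where naive replicate 3 lay among the treated libraries, and the log2 fold change of 0.80 (SE 0.292) had an adjusted p of 0.0613. The call turned on single naive libraries labelled knockout, which share the fit's estimate of spread. Without replicate 3 the adjusted p was 0.00368 in the wild-type (log2 fold change 0.73) and 0.000265 in the libraries labelled knockout (1.31), and without replicate 2 it was 0.0213 in the wild-type (0.73). Over all alternatives the adjusted p in the wild-type ran from 0.000270 to 0.339. Itga4 shares 1124 bases, 8.04% of its exon length, with Cerkl on the opposite strand (GENCODE M21 annotation). Whether the counting used strand is not given in the sources used here, and Cerkl had at most 25.8 CPM in dendritic cells.

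Itgav, the alpha chain of the vitronectin receptors, stood at 35.7, 35.3 and 36.6 CPM in naive wild-type cells and at 128, 147 and 116 CPM after LPS, a rise of 1.86 on the log2 scale (SE 0.266, adjusted p = 0.000381). Cells labelled knockout gave 38.1, 97.4 and 55.1 CPM without LPS and 165, 189 and 176 CPM with it. The groups stayed apart, and the log2 fold change was 1.48 (SE 0.263, adjusted p = 0.00183). Itgb5, a beta chain that pairs with Itgav and takes part in the uptake of dying cells, went the opposite way in the wild-type, from 106, 94.9 and 96.4 CPM to 52.2, 47.9 and 57.2 CPM.

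Itgb5 kept its call in fewer alternatives than the other called members (16 of 20 in the wild-type, 18 of 20 under the knockout label). Its log2 fold change was -0.92 in the wild-type (SE 0.263, adjusted p = 0.0196) and -1.05 in the libraries labelled knockout (SE 0.264, adjusted p = 0.0126), where it stood at 99.8, 43.1 and 91.0 CPM without LPS and at 43.8, 28.8 and 40.5 CPM with it. Naive replicate 3 there lay within the range of the treated libraries. The wild-type call was lost without naive replicate 1 (adjusted p = 0.0514), LPS-treated replicate 1 (0.0566) or LPS-treated replicate 2 (0.0657), each with a log2 fold change of -0.92 to -0.86. The call in the libraries labelled knockout was lost without naive replicate 2 labelled knockout (log2 fold change -0.84, adjusted p = 0.0529).

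Itgb7, the beta chain of the gut-homing receptor with Itga4 and of the epithelial receptor with Itgae, fell most. It stood at 49.1, 51.0 and 44.5 CPM in naive wild-type cells and at 6.60, 6.70 and 9.71 CPM after LPS, so the naive mean was 6.28 times the treated one. The log2 fold change was -2.65 (SE 0.513, adjusted p = 0.00233). In the libraries labelled knockout it stood at 60.7, 10.5 and 42.6 CPM without LPS and at 8.25, 3.97 and 6.73 CPM with it. Naive replicate 3 was close to the treated libraries but above all of them, and the log2 fold change was -2.59 (SE 0.512, adjusted p = 0.00339). The lowest of these values, 3.97 CPM, rests on 199 counts.

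**Figure D2:**
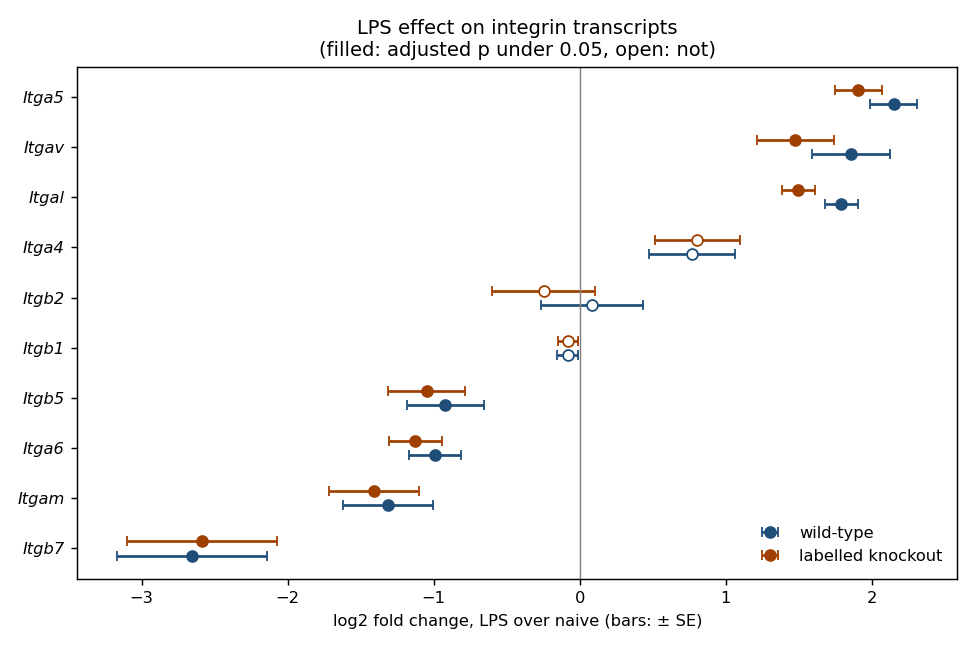
Log2 fold change of each integrin transcript with LPS, in wild-type cells and in cells labelled knockout. Points are estimates from 1 fit over 12 libraries, bars are ± SE, and filled points have an adjusted p under 0.05. Itga5, Itgav and Itgal lie to the right and Itgb5, Itga6, Itgam and Itgb7 to the left with both labels, from 2.15 for Itga5 to -2.65 for Itgb7.

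In the libraries labelled knockout 7 of 10 members were called as well, Itgal, Itga5 and Itgav higher and Itgam, Itga6, Itgb5 and Itgb7 lower, where 28.7% of all genes tested were called. The median was -0.16 over the members and -0.02 over all genes. The difference between the LPS effects of the genotypes was tested as an interaction. No member and no gene was called in it by edgeR (0% of 16965). At an unadjusted p under 0.05 it gave 678 genes, no member among them, fewer than the 848 expected if no gene differed. DESeq2 called 10 genes higher and 11 lower, with no member among these either. The member with the smallest interaction p was Itgal, with a log2 difference of -0.30 (SE 0.158, unadjusted p = 0.0876, adjusted p = 1). In simulated counts of the interaction, 22% of 2-fold and 70% of 4-fold changes were found.

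Relative levels of the chains were compared per kb of exon length, as CPM per kb. In naive wild-type cells Itgam was highest at 540.1 ± 32.4 CPM per kb (SD, n = 3), followed by Itgb2 at 247 ± 17.4 and Itgb1 at 225 ± 0.700. Itgal came next at 44.4 ± 4.28 CPM per kb, then Itgb5 (27.9 ± 1.77), Itgb7 (17.4 ± 1.20), Itga5 (13.5 ± 0.556) and Itga4 (8.02 ± 0.395). Itga6 and Itgav were lowest, at 3.93 ± 0.71 and 3.34 ± 0.0600 CPM per kb, and they were the only neighbours in the order whose libraries overlapped.

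After LPS the wild-type order was different. Itgb2 (262 ± 82.1 CPM per kb, SD, n = 3), Itgam (217 ± 65.8) and Itgb1 (213 ± 11.6) overlapped at the top. Itgal followed at 153 ± 5.27 and Itga5 at 60.0 ± 4.97 CPM per kb, each apart from its neighbours. Itgb5 (14.8 ± 1.31), Itga4 (13.7 ± 0.868) and Itgav (12.1 ± 1.45) overlapped, and Itgb7 (2.77 ± 0.638) and Itga6 (1.97 ± 0.285) were lowest. Exon lengths are those of GENCODE M21 on GRCm38, not of the annotation behind the counts, and 68.7% of the exon bases of Itgam are shared with Gm49368, a gene model with no line in the files.

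Ratios of 2 members within a library do not depend on how libraries are scaled. The log2 ratio of Itgal to Itgam, per kb, was -3.65 to -3.54 in naive wild-type cells and -0.90 to -0.21 after LPS. In the libraries labelled knockout it went from between -3.83 and -2.42 to between -0.64 and 0.04. In spleens it was above 0 in all 19 libraries, from 0.75 to 2.57, with knockout spleen 4 the lowest. The log2 ratio of Itga4 to Itga5 was -0.78 to -0.72 in naive wild-type cells and -2.3 to -1.92 after LPS, and 1.88 to 3.45 in spleens. Under the knockout label it was -0.95 to 0.10 without and -1.73 to -0.80 with LPS, so these groups overlapped. Dendritic cells and spleens differ in tissue, age of the mice and library set at once, so that these cannot be told apart and no test was made between them.

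For the beta chains, the log2 ratio of Itgb7 to Itgb1 was -3.81 to -3.62 in naive wild-type cells, -6.43 to -6.01 after LPS, and -0.92 to 0.49 in spleens. The log2 ratio of Itgb2 to Itgb1 stayed near 0 in wild-type dendritic cells, 0.02 to 0.23 without and 0.01 to 0.66 with LPS. It was below 0 in 2 dendritic cell libraries only, naive replicate 3 (-0.64) and LPS-treated replicate 3 (-0.88) labelled knockout.

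**Figure D3:**
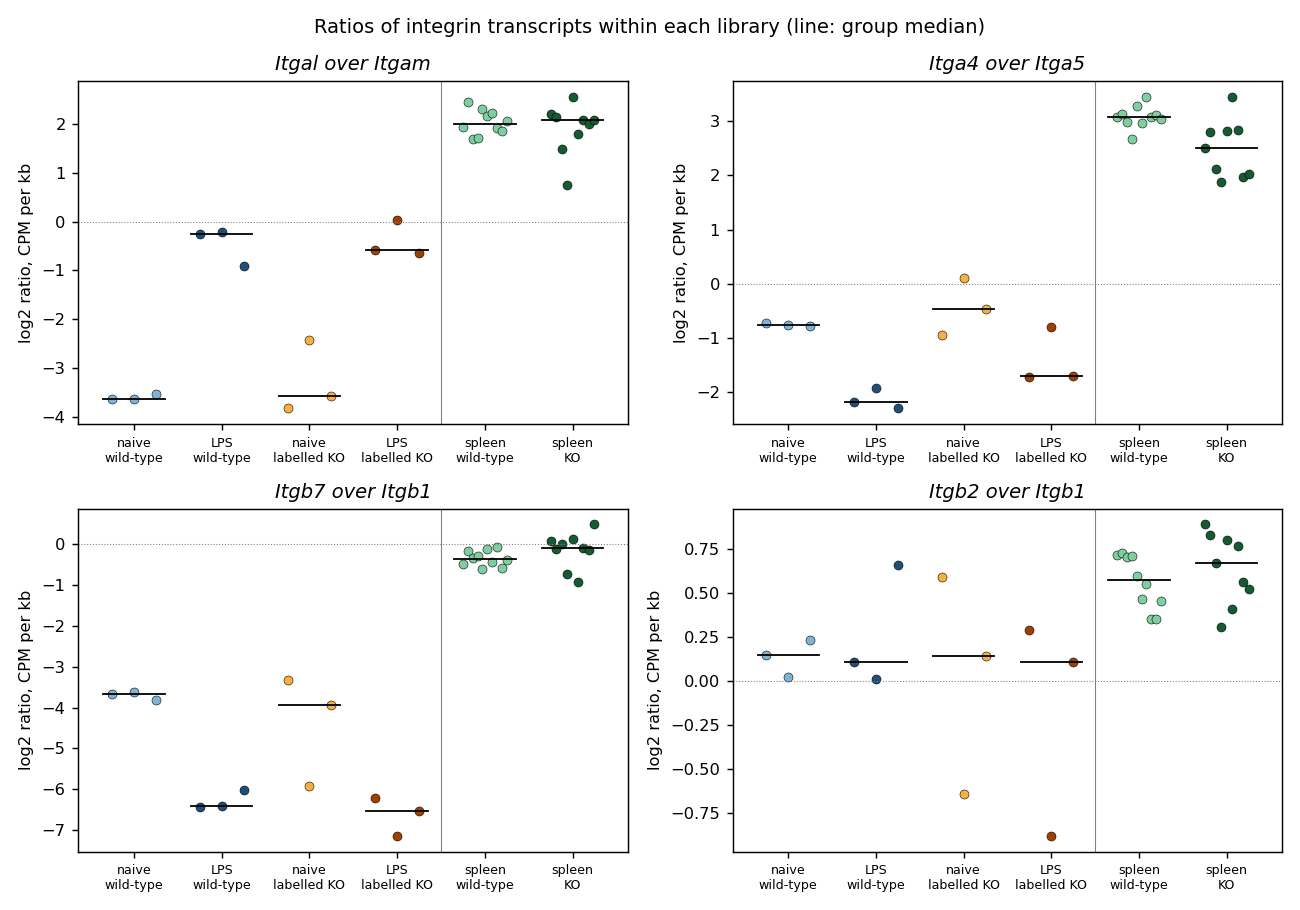
Log2 ratio of 2 integrin transcripts within each library, per kb of exon length, in 6 groups. Each point is a library and the line is the group's median. Itgal over Itgam is below 0 in 11 of 12 dendritic cell libraries and above 0 in all spleens, and Itgb7 over Itgb1 is lowest in LPS-treated cells.

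No integrin transcript was called between cells labelled knockout and wild-type cells, naive or LPS-treated, and neither was any gene of all tested (0% in both). At an unadjusted p under 0.05 edgeR gave 1139 genes in naive cells, among them Itgav and Itgal, and 1914 in LPS-treated cells with no member. If no gene differed, 848 would be expected in each. DESeq2 called 46 genes higher and 32 lower in naive cells, and 224 and 151 in LPS-treated cells, no member among them. Naive Itgav had a log2 fold change of 0.83 (SE 0.260, unadjusted p = 0.00888, adjusted p = 0.631) and naive Itgal one of 0.26 (SE 0.112, unadjusted p = 0.0420, adjusted p = 0.735). For Itgav, the only member whose naive groups did not overlap (13.1% of all genes did not), the value fell to 0.36 without replicate 3. In LPS-treated cells the groups did not overlap for Itga4 (log2 fold change 0.62, SE 0.292, adjusted p = 0.452), Itgav (0.44, SE 0.258, adjusted p = 0.547) and Itgb5 (-0.48, SE 0.263, adjusted p = 0.527), 3 of 10 members where 17.5% of all genes did not.

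Replicate 3 labelled knockout, which holds 120 Gpr34 counts without and 117 with LPS, stood apart in several of its integrins. Against the wild-type mean of the same treatment, the naive library had 0.219 times the Itgb7, 0.434 times the Itgb5, 0.592 times the Itgam and 0.594 times the Itgb2, and 2.40 times the Itga4 and 2.72 times the Itgav. Its LPS-treated counterpart had 0.421 times the Itgb2, 0.518 times the Itgb7, 0.549 times the Itgb5 and 0.613 times the Itgam, and 1.82 times the Itga4 and 1.45 times the Itgav. These 6 genes, named after their values were seen, lay on the same side in both libraries, whereas Itgal (1.35 times naive, 0.889 times with LPS), Itga5 (1.33 and 0.722) and Itgb1 (1.02 and 0.956) did not, and Itga6 was at 0.961 and 0.984 times. Whether these replicate 3 libraries share an animal or culture is not given in the labels. LPS-treated replicate 4 labelled knockout, with 104 Gpr34 counts, had 1.04 times the Itgam, 0.918 times the Itgb2 and 0.878 times the Itgb7. With LPS, the other changes were not particular to replicate 3. Replicates 2 and 4 had 1.35 and 1.43 times the Itga4, 1.27 and 1.36 times the Itgav, and 0.835 and 0.771 times the Itgb5.

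Other markers moved with replicate 3 as well. The summed macrophage markers were 1485 CPM in the naive library, against 4542 and 3613 CPM in the others labelled knockout and 3228 to 3604 CPM in the wild-type, with all 10 markers detected in each group. In the LPS-treated library the sum was 1649 CPM, against 3490 and 2900 CPM in the others labelled knockout and 2297 to 4004 CPM in the wild-type. Among the libraries labelled knockout, the summed dendritic cell markers were highest in replicate 3. They were at 19110 CPM against 15420 and 13720 CPM without LPS and 22490 CPM against 19980 and 20210 CPM with it. Itgax, which is in this sum, went the other way and was lowest in replicate 3. It stood at 586 CPM against 791 and 664 CPM without LPS and 614 CPM against 997 and 842 CPM with it. The wild-type sums were 12580 to 14780 CPM without and 20430 to 23480 CPM with LPS. The part of these cells in the integrin levels was not tested. Without both libraries, an alternative chosen after their values were seen, no member was called between the genotype labels, and the naive log2 fold changes were 0.04 for Itga4, -0.08 for Itgb5 and 0.36 for Itgav.

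**Figure D4:**
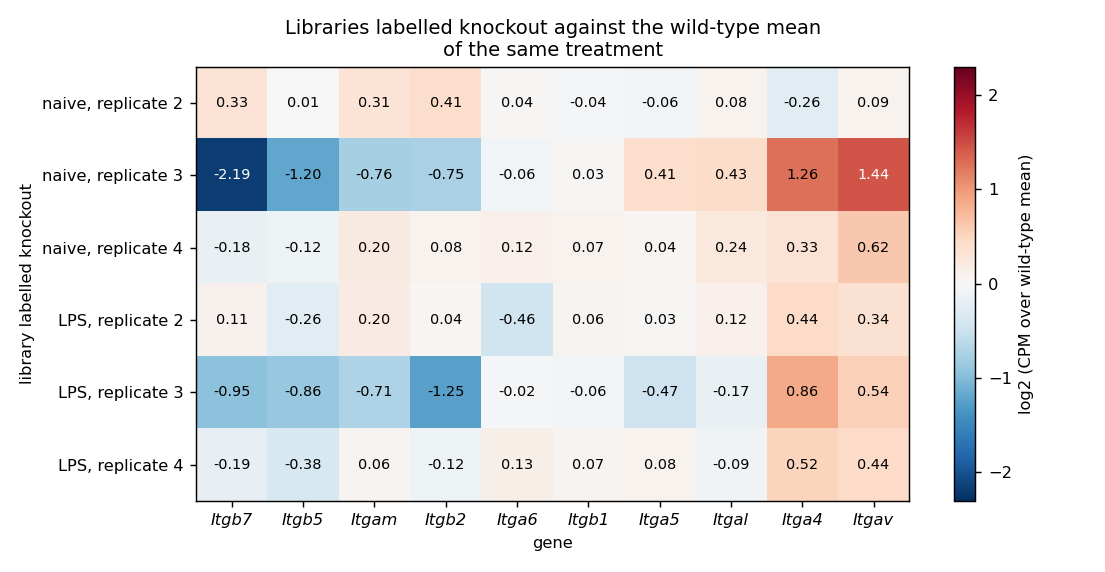
Log2 ratio of each integrin transcript in the 6 dendritic cell libraries labelled knockout to the wild-type mean of the same treatment. Blue is below and red above the wild-type mean. Naive replicate 3 reaches from -2.19 for Itgb7 to 1.44 for Itgav, and LPS-treated replicate 3 shows the same signs for Itgb7, Itgb5, Itgam, Itgb2, Itga4 and Itgav.

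Among 13 other integrin subunits tested in wild-type cells 1 rose and 2 fell with LPS, where 33.9% of all genes were called (median log2 fold change -0.02, against -0.03). Itgb8, the Itgav partner that activates latent TGF-beta, went from 0.164, 0.196 and 0.491 CPM to 7.18, 6.11 and 5.90 CPM (log2 fold change 4.47, SE 0.750, adjusted p = 0.000987). Itga1, a collagen receptor chain, went from 25.7, 18.8 and 23.7 CPM to 5.31, 3.94 and 4.69 CPM (log2 fold change -2.29, SE 0.303, adjusted p = 0.000233). Itgae, the partner of Itgb7 that binds E-cadherin, went from 5.69, 7.74 and 6.82 CPM to 0.0825, 0.806 and 0 CPM (adjusted p = 0.00431). Under the knockout label Itgb8 was called higher (3.81) and Itga1 (-2.51) and Itgae (-2.86) lower.

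Among 13 integrin ligands tested in wild-type cells 3 rose and 2 fell, a share close to the 33.9% called over all genes. Those that rose were Vcam1, the ligand of Itga4 pairs (log2 fold change 3.91, SE 0.458, adjusted p = 0.000105), Thbs1, a matrix protein (1.95, SE 0.192, adjusted p = 3.15e-05), and Icam1, the ligand of Itgal and Itgam (1.34, SE 0.218, adjusted p = 0.000850). Icam1 stood at 149, 158 and 155 CPM in naive wild-type cells and at 418, 387 and 359 CPM after LPS. Cdh1, the E-cadherin that Itgae with Itgb7 binds, fell (-2.299, SE 0.290, adjusted p = 0.000169), as did Mfge8, a bridge between dying cells and Itgav pairs (-0.75, SE 0.169, adjusted p = 0.00597), which is named after its value was seen. In the libraries labelled knockout 3 of the 13 ligands rose and 3 fell, where 15.3% of all genes were called higher and 13.4% lower.

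Of 35 adaptors and kinases that link integrins to the cytoskeleton, 18 rose and 4 fell in wild-type cells, where 18.1% of all genes were called higher and 15.8% lower (median log2 fold change 0.44, against -0.03 over all genes). In cells labelled knockout 16 rose, 3 fell and 16 were not called, where 15.3% of all genes were called higher and 13.4% lower (median 0.34, against -0.02). This split depended on the scaling: without composition factors 9 were called higher and 9 lower in the wild-type (median 0.03, against -0.44 over all genes), and 9 and 8 under the knockout label (0.01, against -0.35). Among those that rose were Actn1, which ties integrins to actin (log2 fold change 1.32, SE 0.137, adjusted p = 4.54e-05), Rap1b, a GTPase that activates integrins (0.95, SE 0.105, adjusted p = 6.16e-05), and Tln1, the talin that binds beta chain tails (0.63, SE 0.0701, adjusted p = 7.25e-05). The 4 that fell, named after their values were seen, were Rassf5, Parvg, Fgr and Rasgrp2, with log2 fold changes of -0.69, -1.71, -0.91 and -2.77. Without composition factors the split of all genes called in wild-type cells moved from 3066 higher and 2679 lower to 1599 and 6128, while the members moved from 3 and 4 to 3 and 5.

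The genes most like 4 of the members across the 12 dendritic cell libraries were ranked by the root mean square difference of centred log2 CPM, among 7441 named genes of at least 10 CPM. For Itgal they were Nampt (0.118), Ralgds (0.134) and Sppl2a (0.134), and for Itgam they were Smpdl3a (0.121), Lat2 (0.126) and Dnase2a (0.133). Itgb2 was most like Bst1 (0.0999), Myo1f (0.125) and Ctsl (0.146), and Itgb7 most like Selenop (0.222), Tifab (0.235) and Aurkb (0.25). Over the 19 spleens the nearest genes were others: Elf4 (0.0763) for Itgal, Agap1 (0.213) for Itgam, Snx19 (0.0779) for Itgb2 and Atxn10 (0.0739) for Itgb7.

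In spleens no integrin transcript was called between knockout and wild-type mice. Of 20371 genes tested 36 were called (0.177%, with 0.0982% higher and 0.0785% lower). No member reached an unadjusted p under 0.05, where 3541 genes did and 1019 would be expected if no gene differed. DESeq2 called 461 genes higher and 439 lower, with no member among them. Member log2 fold changes ran from -0.37 for Itga4 to 0.18 for Itga5, with a median of -0.07 against 0.01 over all genes, and the groups overlapped for all 10 (0.0736% of all genes did not overlap). In simulated counts of this comparison 79% of 2-fold changes were found.

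Itga4 came closest. It stood at 123 CPM in the lowest, 182 in the median and 222 CPM in the highest of 10 wild-type spleens, and at 69.7, 126 and 251 CPM in 9 knockout spleens. The knockout range took in that of the wild-type on both sides, and the log2 fold change was -0.37 (SE 0.182, adjusted p = 0.292). The highest value was that of knockout spleen 6, without which the log2 fold change was -0.53 and the adjusted p 0.0544. Itgav stood at 27.2, 33.3 and 48.0 CPM in the wild-type (lowest, median, highest) and at 16.3, 29.0 and 37.8 CPM in the knockout (log2 fold change -0.26, SE 0.136, adjusted p = 0.323).

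Within the Itgb2 family the spleens of both genotypes had like ranges. Itgal stood at 479, 615 and 826 CPM in the wild-type (lowest, median, highest) and at 346, 612 and 709 CPM in the knockout, and Itgb2 at 232, 289 and 354 CPM and at 216, 285 and 308 CPM. Itgam stood at 85.7, 111 and 163 CPM in the wild-type and at 61.9, 114 and 189 CPM in the knockout. The lowest Itgal, Itgam, Itgb2, Itga4, Itga6, Itgav and Itgb1 were all those of knockout spleen 9. Knockout spleen 4 had the highest Itgam, Itga5 and Itgb5, and its summed erythroid markers were 207100 CPM against 22070 to 73630 CPM in the wild-type. Its megakaryocyte markers summed to 569 CPM against 118 to 216 CPM in the wild-type. Its neutrophil markers summed to 1525 CPM, the most of any knockout spleen, against 415 to 1541 CPM in the wild-type. The part of these cells in its integrin levels was not tested.

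Itgb7, found on lymphocytes, stood at 116, 137 and 157 CPM in wild-type and at 105, 149.5 and 191 CPM in knockout spleens (log2 fold change 0.11, SE 0.0941, adjusted p = 0.571). Its highest value was that of knockout spleen 9, which also had the highest summed T cell markers, 1314 CPM, and its lowest that of knockout spleen 6, which had the lowest, 658 CPM. The summed B cell markers were highest in knockout spleen 7 (4162 CPM) and lowest in knockout spleen 4 (2671 CPM). They were at 4099 CPM in knockout spleen 9 and 3392 CPM in knockout spleen 6. Knockout spleen 9 also had the highest sum over the listed dendritic cell markers, 28260 CPM against 12070 to 21370 CPM in the other 18 spleens. Knockout spleen 6 had 12290 CPM. In whole spleen this sum is not a measure of dendritic cells alone. Its median was 15790 CPM in wild-type spleens and 14390 CPM in naive wild-type dendritic cells, where mean Itgax was 109 and 530 CPM. Itgax, which is in this sum, was not raised in knockout spleen 9. It stood at 95.0 CPM there and at 83.6 CPM in knockout spleen 6, against 95.8 to 126 CPM in the wild-type. The part of any cell type in the level of Itgb7 was not tested. Itgb1 stood at 243 to 289 CPM in the wild-type and at 201 to 293 CPM in the knockout (log2 fold change -0.11, SE 0.0682, adjusted p = 0.433), and Itga5 stood at 5.15 to 9.23 CPM and at 6.05 to 13.3 CPM (0.18, SE 0.142, adjusted p = 0.533).

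**Figure D5:**
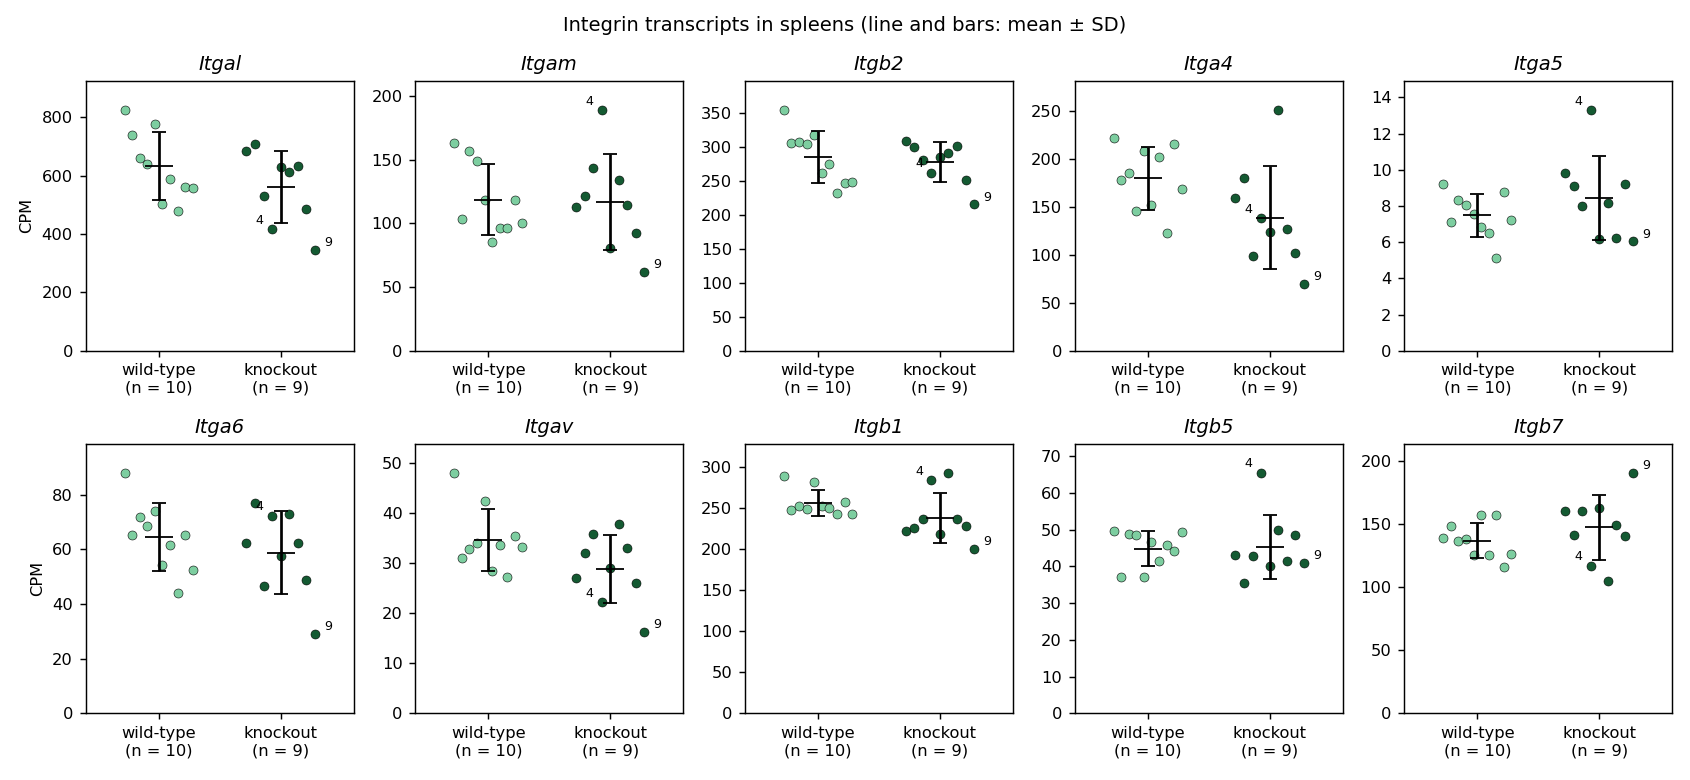
Level of each integrin transcript in 10 wild-type and 9 knockout spleens, in CPM. Each point is a spleen, the line and bars are the mean and SD, and the numbers mark knockout spleens 4 and 9. The groups overlap in all 10 panels, and knockout spleen 9 is the lowest for Itgal, Itgam, Itgb2, Itga4, Itga6, Itgav and Itgb1.

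Per kb the order of the members in wild-type spleens was led by Itgal (96.5 ± 17.8 CPM per kb, SD, n = 10) and Itgb2 (93.4 ± 12.7), which overlapped. Itgb1 (62.9 ± 3.88), Itgb7 (49.4 ± 5.07) and Itgam (23.6 ± 5.53) followed without overlap, then Itga4 (12.9 ± 2.35) and Itgb5 (12.6 ± 1.36), which overlapped. Itga6 (7.14 ± 1.38), Itgav (3.22 ± 0.582) and Itga5 (1.52 ± 0.241) were lowest. Of the genes that work with integrins, none of 15 other subunits, none of 35 adaptors and 1 of 17 ligands was called between the spleen genotypes. Over all genes 0.177% were called. The ligand was Tgfb1, a cytokine made in a latent form that Itgav pairs can activate. It was higher in the knockout (log2 fold change 0.61, SE 0.0883, adjusted p = 0.00532). Its groups overlapped, at 63.4 to 96.4 CPM in the wild-type and 93.6 to 155 CPM in the knockout.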

How the data were processed

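RNA of bone-marrow-derived dendritic cells and spleens was sequenced in 31 libraries, each deposited as a file of read counts per Ensembl gene ID. Per the submitters' processing notes, build mm9 and the tools TopHat 1.3.3, SAMtools, bedtools, Bowtie and DESeq were used, in roles that the notes as given here do not assign. No source used here gives the annotation, the use of strand or the handling of reads with several matches, so genes that share exon bases cannot be separated. Files were joined by gene ID, with absent IDs set to 0. Symbols were found for 26090 of 29120 IDs.

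Counts were tested with edgeR 4.0.16 (R 4.3.3), by filterByExpr, TMM factors and the quasi-likelihood test, in 1 fit of 12 dendritic cell libraries (16965 genes) and 1 of 19 spleens (20371 genes), with Benjamini-Hochberg adjustment over all genes of a fit. The SE is the log2 fold change divided by the square root of F. On simulated counts of the LPS comparison in wild-type cells 54% of 2-fold and 85% of 4-fold changes were found, of 100 genes each. In every simulation the changed genes were drawn at random from expressed genes and all others were left unchanged. The rates are therefore not those of the members. Libraries of 1 group were compared for duplicates, and none agreed within sampling noise.

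The members and lists were chosen with earlier results of these data known. Named were all members, Gpr34, Itgax, up to 4 genes per list and comparison with the smallest p among those called, and 3 like genes for each of 4 members. One gene that the rule names is not reported here. Alternatives were DESeq2 1.42.0, other or no composition factors, no filter, a replicate block, only the groups compared, limma 3.58.1 with GC and length correction, and leaving out each library or the libraries in doubt. Leaving out both replicate 3 libraries labelled knockout, limma without the correction, and the counts of the gene lists under other scalings were chosen after seeing the data.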

Additional observations from a re-analysis of the deposited data

Results flagged for a closer look

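Itgb5 in knockout spleen 4 stood at 65.5 CPM, away from the other 8 knockout spleens, of which the next highest had 49.9 CPM. The gap was 0.518 of the group's range, above the 95% critical value of Dixon's test for 9 values. Of 20 groups of spleens checked for the 10 members this was the 1 that stood out, and chance alone gives about 1 in 20. That spleen also had the highest Itgam and Itga5 of all 19, and the highest summed erythroid and megakaryocyte markers, 207100 and 569 CPM. Its neutrophil markers, 1525 CPM, were the highest of the knockout spleens.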

How the results depend on the processing

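Between 5 and 8 members were called with LPS in the wild-type and between 6 and 8 in the libraries labelled knockout over all alternatives, and 0 in the genotype comparisons and the interaction in every alternative. No called member reversed. Leaving out single libraries gave 6 to 8 members with LPS under either label and 0 elsewhere. Calls were lost for Itgb5 with only its 2 groups in the fit (libraries labelled knockout, adjusted p = 0.0653) and without the single libraries given beside its result. Itga4 was called with LPS by DESeq2 (0.0295 in the wild-type, 0.0221 in the libraries labelled knockout), and without the 3 labelled-knockout libraries that hold over 100 Gpr34 reads (0.00347 and 0.00569). The cause was not tested.

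Counts over all genes moved more than those of the members. In spleens, 20 genes higher and 16 lower became 461 and 439 with DESeq2, 7 and 183 without composition factors (median of all genes -0.105), 14 and 11 without the filter, 42 and 35 with limma corrected for GC and length, 4 and 1 with that correction and the replicate block, 179 and 118 without knockout spleens 4, 6 and 9, and, over single spleens left out, from 4 and 4 (without knockout spleen 8) to 524 and 527 (without knockout spleen 6). With LPS, 2601 higher and 2274 lower in the libraries labelled knockout became 1441 and 4985 without composition factors.

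Same-numbered libraries did not deviate together in all pairs: correlations of their deviations ran from -0.0910 to 0.0747 in dendritic cells and from -0.0782 to 0.290 in spleens, and 3 of 9 wild-type and 4 of 9 knockout spleens correlated best with their own number. Between naive and LPS-treated cells labelled knockout, 2 of 3 libraries on each side correlated best with their own number. These values do not settle whether the numbers pair libraries, and the main fits did not use them. With the replicate block 5 members were called with LPS in the wild-type, where Itgam (-1.14, adjusted p = 0.0527) and Itgb5 (-0.73, 0.0832) were not, and 8 in the libraries labelled knockout, where Itga4 was (0.0422). In the other comparisons the block gave 0 members, and in spleens 2 genes higher and 1 lower. The lowest member count in a library was 199.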
